A study of Mus musculus with 8 samples.

Results

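Universal and dermal fibroblast subset markers were followed in primary lung fibroblasts (pFBs) of mice that express human IGFBP5. They are 10 genes chosen by symbol from the deposited gene counts, *Dpp4*, *Pi16*, *Ly6a*, *Ly6c1*, *Cd34*, *Pdpn*, *Thy1*, *Cd248*, *Mfap5* and *Prdm1*, out of 54532 entries, and each stood on 1 entry. The WT libraries came from wild type mice and the HOMO libraries from mice homozygous for a human IGFBP5 (hIGFBP5) knock-in, both on the C57/black background, both female, and neither treated. The knock-in is driven by the Ef1a1 promoter and is expressed ubiquitously, so it is not restricted to fibroblasts. Cells grew out of minced lung in medium with serum and were used after several passages. The age of the mice and the number behind the libraries are not given in the sources used here. There were 4 libraries per genotype, named WT1 to WT4 and HOMO1 to HOMO4, and n counts libraries. Values per library are always listed in this order.

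Fibroblasts of most organs include a population around vessels and in the adventitia that is marked by *Pi16*, *Dpp4*, *Ly6c1*, *Ly6a* and *Cd34* and is often called universal, because it is found across tissues. In skin, the papillary and the deeper reticular layers of the dermis arise from separate lineages. *Prdm1* (Blimp1), a transcriptional repressor, and *Dpp4* have been used to mark the papillary lineage, and *Ly6a* (Sca1) the deeper one. *Pdpn*, *Thy1* and *Cd248* are carried by fibroblasts more broadly. A bulk library cannot tell fewer cells of a type from less RNA per cell.

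Total counts ran from 17236521 to 29028769 in WT and from 19009027 to 31987790 in HOMO. Levels are CPM, the counts per library scaled to a common size with edgeR's TMM method, and 3 counts, taken as the floor of counting, amount to between 0.0908 and 0.172 CPM. This floor covers counting error only. The libraries were not equally independent. WT1 with WT2, HOMO1 with HOMO2, and HOMO3 with HOMO4 had biological coefficients of variation of 4.74 to 7.66%, whereas the remaining 9 same-genotype pairs reached 31.6 to 58.5%. The counts of the near-identical pairs still differed beyond sampling noise (chi-square per degree of freedom of 4.41 to 8.20). Those of the remaining 9 pairs did too (69.2 to 260), so exceeding that noise does not show that libraries are independent. All 8 libraries were kept, but p-values and SDs then measure a spread that may be partly technical. Each call among the 10 markers is therefore followed by the value with the near-identical libraries summed, which leaves 3 WT and 2 HOMO units and 0 differentially expressed genes (DEGs) in the whole table by edgeR, with 2057 genes at an unadjusted p under 0.05. Mouse *Igfbp5* was counted 130, 225, 7130 and 112 times in WT and 24, 37, 37 and 57 times in HOMO, which places WT3 apart. The paper reports no detectable endogenous *Igfbp5* in either genotype, with data not shown, which differs from these counts. The human transgene itself was not analysed here.

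The label of lung fibroblasts was compared with marker genes. *Col1a1*, the main chain of type I collagen, had a WT mean of 4917 ± 538 CPM (SD, n = 4) and a HOMO mean of 8669 CPM, without overlap and without a call (log2 fold change 0.82, edgeR adjusted p = 0.0985), and all 8 fibroblast markers listed were tested. *Pdgfrb*, a receptor of stromal cells, and *Vim*, the intermediate filament vimentin, fell by 0.97 and 0.65 on the log2 scale (edgeR adjusted p = 0.0251 and 0.0430), whereas *Col1a2* and *Col3a1*, further fibrillar collagen chains, had log2 fold changes of 0.66 and 0.63 without a call (edgeR adjusted p = 0.105 and 0.407). The median log2 fold change of the 8 was 0.01. Of 7 endothelial markers 1 passed the filter on low counts. The endothelial markers *Pecam1* and *Cdh5* had at most 8 counts in any library. Blood cell markers were present and uneven, with a summed level of 7 genes of 109.5 to 1857 CPM in WT and 23.2 to 152 CPM in HOMO, and 5 of them were tested, with edgeR adjusted p-values from 0.0665 to 0.449. *Lyz2*, the macrophage lysozyme, was counted 1558, 2629, 29741 and 23569 times in WT. Their part in the results below was not tested.

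Of the 10 markers, 9 passed edgeR's filter on low counts and 3 were DEGs, *Cd34* up and *Mfap5* and *Pdpn* down in HOMO. The log2 fold change of HOMO over WT (log2FC) is given with its standard error (SE), and a gene was a DEG if its log2FC exceeded 0.6 in size at an adjusted p below 0.05. Among all 14150 tested genes 12.1% were DEGs, 5.94% up and 6.18% down. The same 3 markers were those whose libraries did not overlap between the genotypes, which was the case for 27.3% of all tested genes. The median log2FC of the 9 was −0.40, against −0.04 over all tested genes. The other 6 tested markers had edgeR adjusted p-values from 0.116 to 0.809, and *Prdm1* was too low to test.

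**Figure D1:**
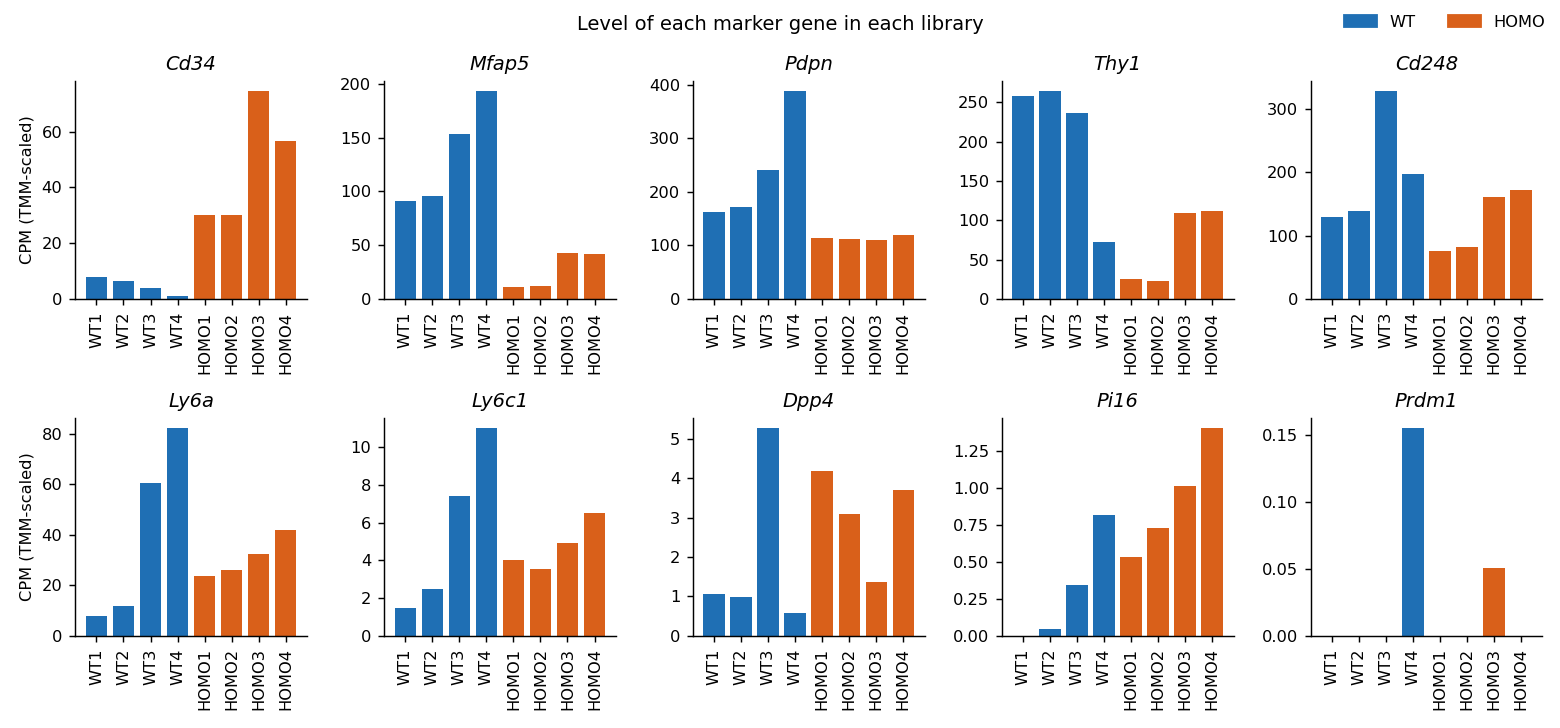
Level of each marker gene in CPM, 1 bar per library, WT in blue and HOMO in orange, with a separate axis from 0 for each gene. *Cd34* is higher in every HOMO library, *Mfap5* and *Pdpn* are lower in every HOMO library, and *Prdm1* was counted in WT4 and HOMO3 alone.

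*Cd34* (ENSMUSG00000016494, GRCm38 chromosome 1, 194938819 to 194961279, plus strand) encodes a sialomucin of the cell surface that marks blood progenitors, endothelium and adventitial fibroblasts. It was counted 139, 153, 71 and 27 times in WT and 676, 996, 1470 and 1134 times in HOMO. These counts correspond to 7.82, 6.56, 4.07 and 1.045 CPM in WT and to 30.1, 30.1, 74.5 and 56.8 CPM in HOMO. The lowest HOMO library lay above the highest WT library, HOMO3 and HOMO4 lay above HOMO1 and HOMO2, and WT4 was the lowest of all. *Cd34* rose between mean levels of 4.88 ± 2.99 CPM for WT and 47.9 ± 21.8 CPM for HOMO (SD over n = 4 libraries each), with a log2FC of 3.30 (SE 0.60, edgeR adjusted p = 0.0123), or 9.85-fold. With near-identical libraries summed, the log2FC was 3.56 (SE 0.78, edgeR adjusted p = 0.246). With any single library left out, *Cd34* was still called, at log2FC values between 2.96 and 3.62. Except for WT3 and WT4, the near-identical partner of the library left out stayed in the fit. With the replicate number as a block *Cd34* was not called (edgeR adjusted p = 0.0545).

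The endothelial markers were low in both genotypes, and their part in the change of *Cd34* was not tested. *Kdr*, a VEGF receptor and the one of them that was tested, was counted 16, 27, 12 and 95 times in WT and 21, 34, 58 and 57 times in HOMO (log2FC 0.25, edgeR adjusted p = 0.817), so that in WT4 it exceeded *Cd34*. *Pecam1*, an endothelial adhesion molecule, was counted 5, 0, 2 and 3 times in WT and 8, 3, 7 and 0 times in HOMO. The leukocyte marker *Ptprc* was at 9.54 CPM in WT and 1.53 CPM in HOMO, with overlap and without a call (log2FC −2.65, edgeR adjusted p = 0.122). *Podxl*, a sialomucin of the CD34 family, was counted 181, 241, 5 and 297 times in WT and 1858, 2647, 1774 and 1618 times in HOMO. Its libraries did not overlap either, with WT3 the lowest, and it rose by 3.36 on the log2 scale (edgeR adjusted p = 0.0242). *Podxl2*, the third member of the family, had a log2FC of 0.37 (edgeR adjusted p = 0.642) with overlap.

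**Figure D2:**
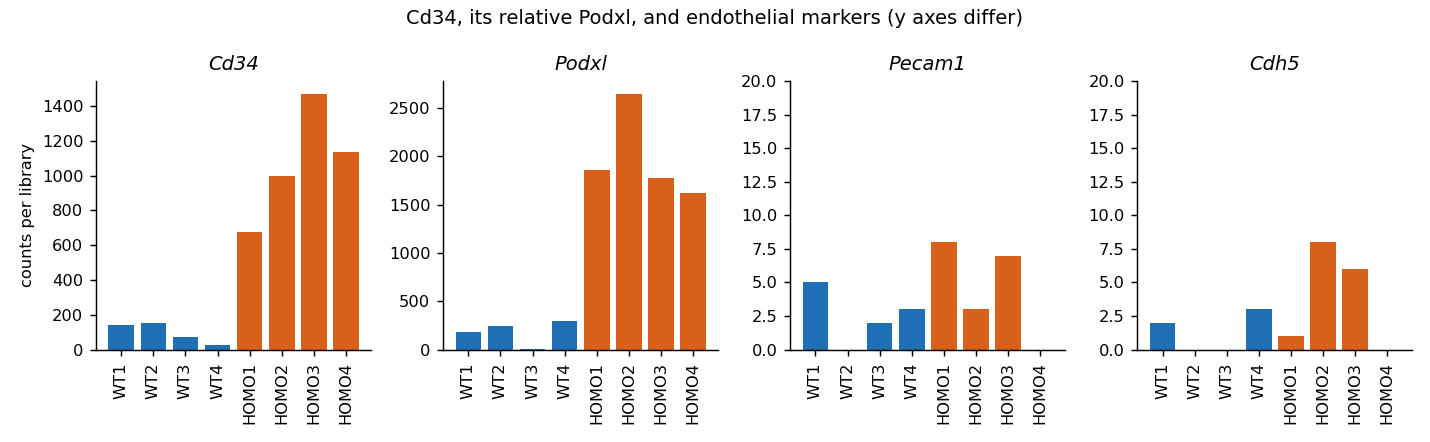
Counts per library of *Cd34*, its relative *Podxl* and the endothelial markers *Pecam1* and *Cdh5*, 1 bar per library, with a different axis in each panel. *Cd34* and *Podxl* are higher in all 4 HOMO libraries, while *Pecam1* and *Cdh5* do not exceed 8 counts.

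The 250 bases before the RefSeq start site are shown for *Cd34* and *Pdpn*, the DEGs with a sequence among the RefSeq promoters (GRCm38.p6), since these 2 genes changed in opposite directions. Capitals mark matches, on either strand, to the TATA box TATAAA, the GC box GGGCGG, the CCAAT box, the AP-1 site TGANTCA and the E-box CACGTG.
Cd34, chr1:194938571-194938820, plus strand: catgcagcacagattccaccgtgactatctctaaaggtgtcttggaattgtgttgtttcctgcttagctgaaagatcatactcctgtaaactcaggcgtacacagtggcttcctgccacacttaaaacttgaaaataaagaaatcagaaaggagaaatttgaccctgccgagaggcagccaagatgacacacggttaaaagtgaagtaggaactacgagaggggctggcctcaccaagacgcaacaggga
Pdpn, chr4:143299565-143299814, minus strand: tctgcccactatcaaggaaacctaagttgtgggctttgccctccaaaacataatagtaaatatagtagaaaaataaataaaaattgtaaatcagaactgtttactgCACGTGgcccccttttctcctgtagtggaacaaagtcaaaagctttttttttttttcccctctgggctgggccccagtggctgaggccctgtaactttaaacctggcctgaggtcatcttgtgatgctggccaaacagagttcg
The *Cd34* window held none of the 5 motifs, and the *Pdpn* window held CACGTG once, starting 144 bases before the start site. Of 32851 promoter windows of this length, 12.4% hold TATAAA, 32.7% GGGCGG, 33.9% CCAAT, 6.75% TGANTCA and 6.02% CACGTG. A match is a description of letters and not a binding site.

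*Mfap5* (ENSMUSG00000030116, chromosome 6, 122505845 to 122529290, plus strand) encodes MAGP-2, a small glycoprotein of the microfibrils on which elastic fibers form. Its counts were 1622, 2241, 2682 and 4990 in WT and 253, 393, 851 and 831 in HOMO. In CPM these were 91.3, 96.1, 154 and 193 in WT and 11.3, 11.9, 43.1 and 41.7 in HOMO. HOMO1 and HOMO2 were the lowest, and the highest HOMO library stayed below the lowest WT library. *Mfap5* fell between mean levels of 134 ± 48.9 CPM for WT and 27.0 ± 17.8 CPM for HOMO (SD over n = 4 libraries each), with a log2FC of −2.31 (SE 0.52, edgeR adjusted p = 0.0245), or 4.96-fold lower. Without HOMO1 or without HOMO2 the adjusted p was 0.0665 and 0.0705, at log2FC values of −2.05 and −2.06. With near-identical libraries summed the log2FC was −2.43 (edgeR adjusted p = 0.291).

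*Fbn1*, which encodes fibrillin-1, the main protein of microfibrils, was also a DEG, with 608.7 CPM in WT and 296 CPM in HOMO and a log2FC of −1.04 (edgeR adjusted p = 0.0165). *Mfap2*, which encodes the related MAGP-1, was low, at 4.09 CPM in WT and 3.92 CPM in HOMO. *Mfap4* was counted 4, 11, 8276 and 81 times in WT, so its mean of 120 CPM in WT rests on WT3.

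*Pdpn* (ENSMUSG00000028583, chromosome 4, 143267431 to 143299564, minus strand) encodes podoplanin, a membrane mucin of lymphatic endothelium, alveolar type I cells and activated fibroblasts. It was counted 2896, 4020, 4189 and 10018 times in WT and 2561, 3720, 2174 and 2398 times in HOMO. The corresponding levels were 163, 172, 240.4 and 388 CPM in WT and 114, 113, 110.2 and 120.2 CPM in HOMO. The HOMO libraries were within 1.09-fold of each other, and the WT libraries spread over 2.38-fold with WT4 the highest. *Pdpn* fell between mean levels of 241 ± 104 CPM for WT and 114 ± 4.28 CPM for HOMO (SD over n = 4 libraries each), with a log2FC of −1.08 (SE 0.27, edgeR adjusted p = 0.0343), or 2.11-fold lower.

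The call for *Pdpn* was the least stable of the 3. The median gene of chromosome 4 stood 0.34 higher on the log2 scale in WT4 than in the other WT libraries, beyond the median of all genes, and without WT4 the log2FC of *Pdpn* was −0.75 (edgeR adjusted p = 0.0240). It was not called when any 1 HOMO library was left out (edgeR adjusted p from 0.0751 for HOMO4 to 0.108 for HOMO2) or when near-identical libraries were summed (edgeR adjusted p = 0.348). *Pdpn* is also carried by other cells, and the part of these in its change was not tested. *Prox1*, the defining transcription factor of lymphatic endothelium, had 9, 10, 7 and 8 counts in WT and 0, 6, 1 and 5 in HOMO, and *Lyve1* at most 15 in any library. The epithelial markers, 6 genes, summed to 0.225 to 1.55 CPM in WT and 1.61 to 13.7 CPM in HOMO, with *Cdh1* (E-cadherin) as the DEG (log2FC 2.77, edgeR adjusted p = 0.0462). The upper end in HOMO rests mostly on *Sftpc* and *Scgb1a1*, which were not tested. In HOMO these were counted 1, 48, 99 and 3 times and 3, 110, 130 and 1 times, unevenly between near-identical libraries. The mesothelial markers, 6 genes, summed to 52.8 to 235 CPM in WT and 106 to 152 CPM in HOMO. Of these, 1 was called, *Wt1*, which rose by 3.36 on the log2 scale (edgeR adjusted p = 0.0166), while *Upk3b* was at 55.8 CPM in WT and 59.6 CPM in HOMO. *Krt19*, *Upk1b* and *Msln* had log2FC values of −3.06, −0.62 and −0.52 without a call (edgeR adjusted p = 0.0856, 0.732 and 0.767), and the median of the 6 was −0.21.

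**Figure D3:**
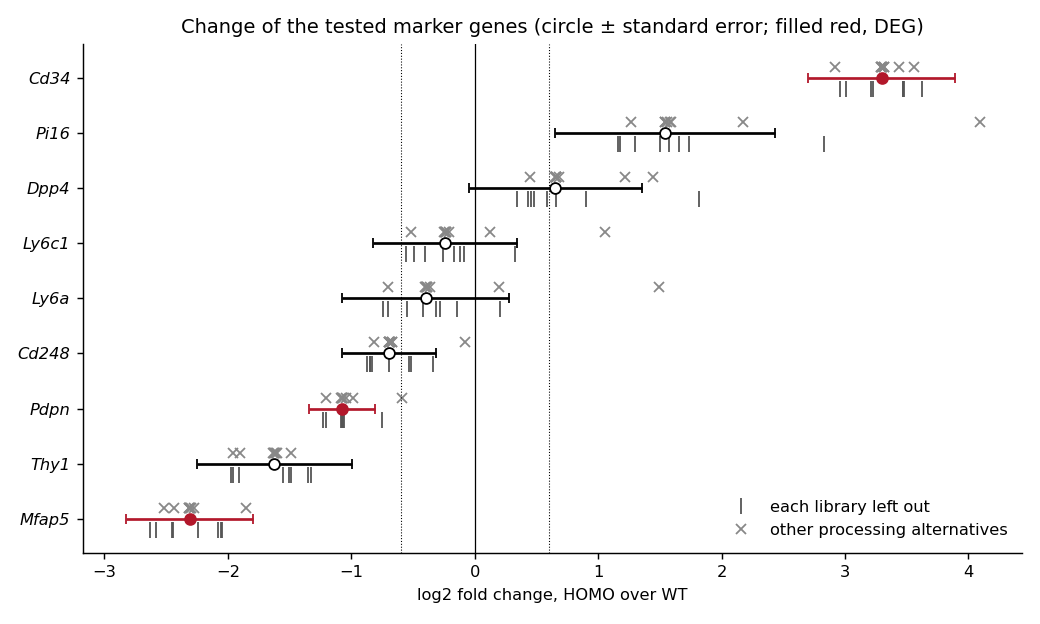
Log2 fold change of HOMO over WT for the 9 tested markers, circles with bars of 1 standard error, filled red for DEGs. Ticks below each circle are the values with 1 library left out, crosses above it are the other alternatives, and dotted lines mark 0.6 in either direction. *Ly6a* and *Ly6c1* have values on both sides of 0.

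*Thy1* (ENSMUSG00000032011, chromosome 9, 44043384 to 44048579, plus strand) encodes the GPI-anchored glycoprotein CD90, which divides lung fibroblasts into positive and negative cells. Its levels were 258, 264, 236 and 71.7 CPM in WT and 25.6, 22.3, 109 and 112 CPM in HOMO. WT4 lay below HOMO3 and HOMO4, so the genotypes overlapped, and HOMO1 and HOMO2 were the lowest of all. The log2FC was −1.62 (SE 0.63, edgeR adjusted p = 0.116) and was not called. DESeq2 gave −1.63 with an adjusted p of 0.0350. Without WT4, edgeR gave −1.91 (adjusted p = 0.0726). The median gene of chromosome 9 differed from the remaining WT libraries by −0.21 in WT4 and 0.22 in WT3 on the log2 scale. The T cell marker *Cd3e* had 1 count in WT4 and 0 in the other libraries.

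*Cd248* (ENSMUSG00000056481, chromosome 19, 5068078 to 5070682, plus strand) encodes endosialin, a C-type lectin of stromal cells and pericytes. It was measured at 129, 139, 328 and 197 CPM in WT and at 75.4, 82.3, 161 and 172 CPM in HOMO. HOMO3 and HOMO4 lay among the WT libraries, HOMO1 and HOMO2 lay below them, and WT3 was the highest. The log2FC of −0.69 (SE 0.38, edgeR adjusted p = 0.244) was not called, and it was −0.34 without WT3. The median gene of chromosome 19 differed by −0.24 on the log2 scale in WT4. The ratio of *Mfap5* counts to *Cd248* counts was 0.709, 0.694, 0.469 and 0.978 in WT and 0.150, 0.145, 0.268 and 0.242 in HOMO. In that ratio, which does not depend on library scaling, the genotypes did not overlap. They did not overlap in *Mfap5* alone either, so the ratio is no separate support. The ratio of *Cd34* to *Thy1* counts did not overlap between the genotypes, while that of *Pdpn* to *Thy1* counts did. The pericyte marker *Rgs5* was counted 59, 90, 12 and 932 times in WT and at most 13 times in a HOMO library, and was a DEG (log2FC −5.20, edgeR adjusted p = 0.0486), the one among 6 pericyte and smooth muscle markers, whose median log2FC was −0.74.

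*Ly6a* (ENSMUSG00000075602, chromosome 15, 74994877 to 74998031, minus strand) and *Ly6c1* (ENSMUSG00000079018, chromosome 15, 75044018 to 75048830, minus strand) encode small GPI-anchored surface proteins of the Ly6 family, which lies in a cluster. *Ly6a* was measured at 7.88, 11.7, 60.7 and 82.3 CPM in WT and at 23.6, 25.9, 32.4 and 41.8 CPM in HOMO. *Ly6c1* was lower, with 26, 58, 129 and 285 counts in WT and 90, 117, 97 and 130 counts in HOMO. In both genes all HOMO libraries fell in the gap between WT1 and WT2 below and WT3 and WT4 above. The WT libraries spread over 10.4-fold in *Ly6a* and 7.54-fold in *Ly6c1*, against 1.77- and 1.84-fold in HOMO. WT3 and WT4 were also the libraries with the most *Lyz2* counts, and *Ptprc* was counted 17, 39, 233 and 572 times in WT.

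The log2FC values were −0.40 (SE 0.68, edgeR adjusted p = 0.722) for *Ly6a* and −0.24 (SE 0.58, edgeR adjusted p = 0.809) for *Ly6c1*. Neither was called, and the sign depends on WT4, since without it the log2FC values were 0.21 and 0.33. Limma-voom with sample weights called both higher in HOMO, at 1.496 and 1.06 (adjusted p = 0.00229 and 0.0141). The ratio of *Ly6a* counts to *Ly6c1* counts ran from 4.71 in WT2 to 8.20 in WT3, a 1.74-fold span, while each gene varied by much more across the same libraries.

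**Figure D4:**
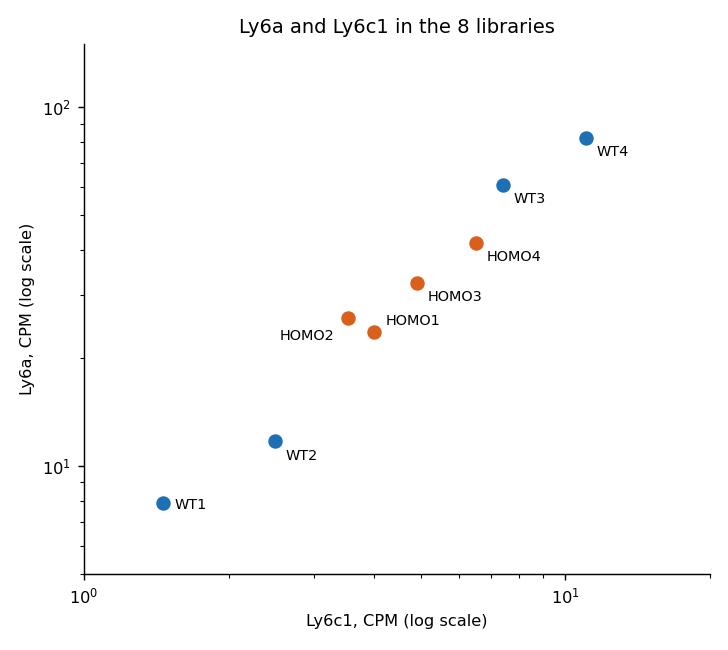
*Ly6a* against *Ly6c1* in CPM, both axes on a log scale, 1 point per library, WT in blue and HOMO in orange. The 4 HOMO libraries lie between WT1 and WT2 at the lower left and WT3 and WT4 at the upper right.

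Reads of close Ly6 paralogs can be hard to assign. The coding sequences of *Ly6c1* and *Ly6c2* (first named transcript of each gene in GENCODE M21) are identical at 384 of 393 bases, or 97.7%, and share 47.1% of all windows of 50 bases, so the count of *Ly6c1* is uncertain. *Ly6c2* itself had 2 counts in HOMO1 and 0 elsewhere. *Ly6a* and *Ly6c1* are identical at 83.7% of aligned bases and share 0 such windows. The first 150 coding bases of the close pair are given to show how few letters part them, with the 6 differing bases in capitals.
Ly6c1: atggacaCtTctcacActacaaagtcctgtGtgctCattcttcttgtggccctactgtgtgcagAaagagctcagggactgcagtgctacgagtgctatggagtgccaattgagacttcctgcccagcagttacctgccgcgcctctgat
Ly6c2: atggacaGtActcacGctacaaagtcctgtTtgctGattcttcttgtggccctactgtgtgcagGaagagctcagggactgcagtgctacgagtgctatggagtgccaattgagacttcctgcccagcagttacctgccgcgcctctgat
Of the 15 Ly6 family genes of the cluster that were listed, 10 had at most 3 counts in every library and 4 were tested, *Ly6a* and *Ly6c1* included, with a median log2FC of −0.66. *Lynx1*, a modulator of nicotinic acetylcholine receptors, was the one DEG, at 91.1 CPM in WT and 25.8 CPM in HOMO (log2FC −1.82, edgeR adjusted p = 0.00754). *Ly6e*, a ubiquitous family member, was at 98.0 CPM in WT and 51.7 CPM in HOMO without a call (edgeR adjusted p = 0.116).

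*Dpp4* (ENSMUSG00000035000, chromosome 2, 62330073 to 62412231, minus strand) encodes the serine protease CD26, which cleaves dipeptides from chemokines and incretins. It was low, with 19, 23, 92 and 15 counts in WT and 94, 102, 27 and 74 counts in HOMO. WT3 was the highest of all libraries in CPM, and HOMO3 lay with the lower WT libraries, unlike its near-identical partner HOMO4. Mean levels were 1.98 ± 2.21 CPM for WT and 3.09 ± 1.23 CPM for HOMO (SD over n = 4 libraries each), and the log2FC of 0.65 (SE 0.70, edgeR adjusted p = 0.555) was not called. Of the 8 fits with 1 library left out, it was called in the one without WT3, at 1.82 (edgeR adjusted p = 0.0318). Its relatives *Dpp8* and *Dpp9*, cytosolic peptidases, were at 114 and 109 CPM in WT and were not called. *Fap*, the neighbouring gene for fibroblast activation protein, was as low as *Dpp4*, at 2.02 CPM in WT and 3.33 CPM in HOMO. *Dpp6*, which lacks the protease activity and modulates potassium channels, was counted 1, 2, 10 and 2 times in WT and 51, 61, 42 and 67 times in HOMO and rose by 3.63 on the log2 scale (edgeR adjusted p = 0.0146).

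*Pi16* (ENSMUSG00000024011, chromosome 17, 29317680 to 29330593, plus strand), the gene most often used to name universal fibroblasts, encodes a peptidase inhibitor of the CAP family. It was close to the floor, with 0, 1, 6 and 21 counts in WT and 12, 24, 20 and 28 counts in HOMO. WT1 and WT2 were under the floor, and WT4, at 0.813 CPM, lay among the HOMO libraries of 0.535 to 1.40 CPM. The log2FC was 1.54 (SE 0.89, edgeR adjusted p = 0.264) and was not called. It was 2.83 without WT4 (edgeR adjusted p = 0.0782), and limma-voom with sample weights called it at 4.09 (adjusted p = 0.000191). *Glipr1*, another CAP family gene, fell by 5.70 on the log2 scale (edgeR adjusted p = 0.0117), with 3045, 4266, 286 and 4855 counts in WT and 15, 23, 68 and 122 counts in HOMO.

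*Prdm1* (ENSMUSG00000038151, chromosome 10, 44437177 to 44528501, minus strand) was counted 4 times in WT4, once in HOMO3 and 0 times in the other 6 libraries. It was outside the test, at or about the floor of counting, and no difference was detectable at this depth. *Prdm6*, a repressor known from smooth muscle, was the one DEG among the Prdm genes listed, at 37.3 CPM in WT and 5.39 CPM in HOMO (log2FC −2.79, edgeR adjusted p = 0.0129). Over all 26 relatives of the markers outside the Ly6 family, 22 were tested, 2 rose (*Podxl* and *Dpp6*) and 2 fell (*Glipr1* and *Prdm6*). That is 18.2% DEGs, against 12.1% of all tested genes. The median log2FC of the 22 was 0.24, against −0.04 over all tested genes.

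Levels were compared between genes as CPM per kilobase of annotated exon. In WT the order of the means was *Pdpn* (133 ± 57.2, SD, n = 4), *Cd248* (76.1 ± 35.3), *Thy1* (69.2 ± 30.5), *Mfap5* (37.2 ± 13.6), *Ly6a* (33.7 ± 30.5), *Ly6c1* (3.34 ± 2.66), *Cd34* (0.669 ± 0.410), *Dpp4* (0.313 ± 0.350), *Pi16* (0.0472 ± 0.0589) and *Prdm1* (0.00694 ± 0.0139). The ranges of all 9 neighbouring pairs in this order overlapped. In HOMO, *Cd34* stood at 6.57 ± 2.98 CPM per kilobase (SD, n = 4), next to *Mfap5* at 7.52 ± 4.96 and without overlap above *Ly6c1* at 2.83 ± 0.782. *Pdpn* and *Cd248* were first in both genotypes, at 62.9 ± 2.36 and 47.1 ± 19.6 in HOMO. The broad stromal markers *Pdpn*, *Cd248* and *Thy1* stood between the 95.16th and 97.65th percentile of all tested genes per length in WT, and *Pi16* at percentile 0.633.

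**Figure D5:**
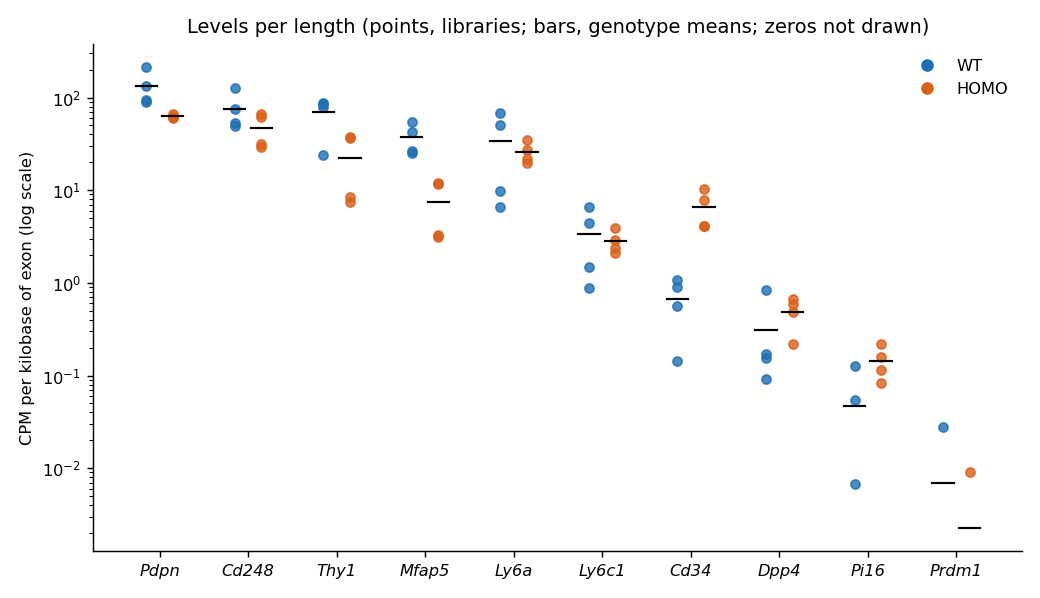
CPM per kilobase of exon on a log scale, genes in the order of their WT mean, 1 point per library with WT in blue and HOMO in orange, and a black bar for the genotype mean. Libraries at 0 are not drawn, which leaves out WT1 for *Pi16* and 6 libraries for *Prdm1*. The markers span from 133 for *Pdpn* in WT down to 0.00694 for *Prdm1* in WT.

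Genes with a like pattern were taken as those with the highest Pearson correlation of log2 CPM with a marker over the 8 libraries. Since 3 pairs of libraries are near-identical, this is a description of about 5 separate profiles and carries no test. *Mfap5* was followed most closely by *Dap* (r = 0.9991) and *Jph2* (r = 0.9968), both DEGs, and 207 tested genes had r above 0.95. For *Pdpn* the nearest were *Ski* and *Trnp1* (r = 0.9965 and 0.9953), for *Thy1* *Arhgdib* and *Sae1* (r = 0.9955 and 0.9953), and for *Cd248* *Fstl1* and *Mcam* (r = 0.9904 and 0.9899). *Cd34* was nearest to *E2f4* and *Rerg* (r = 0.9901 and 0.9854), with 61 genes above 0.95. The gene nearest to *Ly6a* was *Ly6c1* itself (r = 0.9883), before *Kcne4* (r = 0.9868). *Dpp4* and *Pi16*, both of low counts, had 6 and 17 genes above 0.95, led by *Hdac8* and *Nap1l3* (r = 0.9742 and 0.9733) and by *Galns* and *Rnft1* (r = 0.9798 and 0.9768).

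Other genes of the fibroblast subsets were read from fixed lists. Of 16 further adventitial and universal fibroblast genes, 14 were tested, and *Fbn1* was the one DEG. The median log2FC of the 14 was −1.04, against −0.04 over all tested genes. *Dpt*, the gene for dermatopontin, was counted 1267, 2057, 8722 and 115 times in WT, and *Col14a1*, a collagen of adventitia and tendon, 8350, 13670, 427 and 745 times. Neither was called, at log2FC values of −2.06 and −2.86 (edgeR adjusted p = 0.238 and 0.0849). In the other direction, *Scara5* was at 0.537 CPM in WT and 1.91 CPM in HOMO. Its libraries did not overlap, and it was not called (log2FC 1.79, edgeR adjusted p = 0.0831). *C3*, the central complement component, was at 423.5 CPM in WT and 2548 CPM in HOMO with overlap (log2FC 2.59, edgeR adjusted p = 0.0594). *Penk* and *Efhd1* had at most 2 counts in any library.

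Among 14 genes of dermal lineages 13 were tested and 4 were DEGs, 2 up and 2 down (30.8%, against 12.1% of all tested genes). The median log2FC of the 13 was −0.78, against −0.04 over all tested genes. The list was chosen with earlier results of these data known. *Mgp*, the matrix Gla protein that inhibits calcification, was abundant, at 1818 CPM in WT and 117 CPM in HOMO, and fell by 3.96 on the log2 scale (edgeR adjusted p = 0.00310), with counts from 22663 to 63337 in WT and from 1352 to 3592 in HOMO. *Twist2*, the dermal transcription factor Dermo-1, fell by 1.72 (edgeR adjusted p = 0.0114), from 19.1 to 5.80 CPM. *Dlk1*, a membrane protein of the deeper dermis and of preadipocytes, rose by 1.71 (edgeR adjusted p = 0.0182), from 1.67 to 5.46 CPM. *Dkk1*, a secreted Wnt inhibitor, was counted 2, 0, 2 and 1 times in WT and 12, 37, 215 and 141 times in HOMO (edgeR adjusted p = 0.0162). *En1*, which marks the dermal lineage of the back skin, was at 22.0 CPM in WT and 12.7 CPM in HOMO, without overlap and without a call (edgeR adjusted p = 0.0877). *Lrig1*, also without overlap, missed the fold change threshold alone (log2FC −0.56, edgeR adjusted p = 0.0372). *Axin2* and *Rspo1* had log2FC values of 1.809 and 1.805 with overlap and without a call (edgeR adjusted p = 0.0864 and 0.389).

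Alveolar fibroblast genes numbered 12, of which 6 were tested and 1 was a DEG (16.7%, against 12.1% of all tested genes). The median log2FC of the 6 was −2.23, against −0.04 over all tested genes. *Npnt*, the gene for nephronectin, fell by 2.06 on the log2 scale (edgeR adjusted p = 0.0365), from 167 to 40.1 CPM. *Tcf21*, a transcription factor of lung mesenchyme, was counted 855, 1331, 94 and 1231 times in WT and 64, 129, 239 and 226 times in HOMO, and was not called (edgeR adjusted p = 0.0619). *Itga8* and *Mfap4* were counted mostly in WT3. Of 6 peribronchial fibroblast genes, 3 were tested, with a median log2FC of −0.28 and edgeR adjusted p-values from 0.256 to 0.887, and *Aspn* had 1449 counts in WT3 against at most 26 in any other library.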

How the data were processed

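The authors trimmed paired-end reads with fastp, aligned them to mm10 with STAR and deposited unnormalized whole-number counts per gene from featureCounts. Tool versions, the annotation and the strand setting are not given in the sources used here. All 8 libraries available were used, and 0 columns of per-sample values were set aside. The authors' title for the counts hints that outliers had been taken out beforehand. Whether these were libraries, and which ones, is not given in the sources used here. Spread within a genotype and lack of overlap may therefore describe a preselected set, and this was not tested. The members and gene lists were chosen with earlier results of these data known.

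Counts were fitted over the whole table with edgeR 4.0.16 in R 4.3.3 (TMM, filterByExpr, quasi-likelihood F test, Benjamini-Hochberg adjustment over 14150 genes). Standard errors were obtained from F and the log2 fold change, and a prior count of 2 was added for log2 CPM. An exact permutation test planned for *Prdm1* is not reported, because 6 of its 8 values are 0 and tied. Positions and exon lengths are from GENCODE M21 (GRCm38, also called mm10), and promoters from RefSeq (GRCm38.p6). At 2.03% of the exon bases of *Cd34*, 3.67% of *Dpp4* and 3.49% of *Pi16*, an antisense gene overlaps. The tests were tried on simulated data. All markers, list genes that were DEGs or needed to read a list, and the 2 genes of most like pattern per tested marker are named, except 1 result that is not reported here. Alternatives were DESeq2 1.42.0, limma-voom (limma 3.58.1) with sample weights, other scalings, filters and dispersions, a replicate block, summed near-identical libraries, no fold change threshold, and each library left out.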

Additional observations from a re-analysis of the deposited data

Results flagged for a closer look

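For the 9 tested markers, 18 groups of 4 libraries were searched for a sample far from the rest by Dixon's test, and 1 stood apart. The chance rate of this test, about 1 in 20, holds for independent libraries. Near-identical libraries are not independent, so that rate cannot be applied here. The HOMO groups, made of near-identical pairs, leave little room for a lone outlier. *Thy1* in WT4 was at 6.17 log2 CPM, while WT1, WT2 and WT3 had 7.89 to 8.04, which is a gap of 0.916 of the whole WT range. WT4 had 1852 counts of *Thy1*, and the remaining WT libraries had 4120 to 6149. The median gene of chromosome 9, which holds *Thy1*, differed by −0.21 on the log2 scale between WT4 and the other WT libraries, and its part was not tested.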

How the results depend on the processing

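Of the 9 tested markers, 7 kept their direction under every alternative that gave them a value, *Ly6a* and *Ly6c1* excepted. *Pi16* had no value with the filter on CPM above 1 in at least 4 libraries. The log2 fold changes of these 2 were above 0 in limma-voom with sample weights (1.496 and 1.06), with the replicate number as a block (0.20 and 0.12) and without WT4 (0.21 and 0.33), and with each library left out they ran from −0.74 to 0.21 and from −0.56 to 0.33. The number of DEGs among the markers moved from 3 to 7 in limma-voom with sample weights (*Cd34*, *Mfap5*, *Thy1*, *Ly6a*, *Ly6c1*, *Dpp4* and *Pi16*), where WT3 and WT4 had weights of 0.0927 and 0.164 against 0.910 to 8.14 in the others, to 1 (*Mfap5*) with the replicate block, and to 0 with near-identical libraries summed. It was between 1 and 4 with each library left out, and 3 or 4 under the other alternatives. *Cd34* missed the threshold with the block (edgeR adjusted p = 0.0545). In limma-voom *Pdpn*, at −0.59, missed the fold change threshold alone. The number of DEGs in the whole table was 2913 in DESeq2, 3573 in limma-voom, 947 with the replicate block, 0 with near-identical libraries summed, and 507 to 2192 with each library left out, against 1716. No pairing of libraries by replicate number was detected, as same-numbered deviations correlated at −0.09, −0.04, 0.01 and −0.12. With few and partly near-identical libraries, such a check cannot exclude a pairing. The causes of these moves were not tested. Depth limits *Prdm1*, at 4 counts or fewer, and *Pi16*, at 28 or fewer.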
